A study of Mus musculus with 6 samples.

Results

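The genes described here are the PGC-1 family of transcriptional coactivators: Ppargc1a, Ppargc1b and Pprc1. With them are Esrra, Nrf1 and Gabpa, the DNA-binding factors they work through in mitochondrial biogenesis. Tfam, Tfb2m and Polrmt are nuclear genes of the machinery that transcribes the mitochondrial genome, and Tfb1m encodes a mitochondrial rRNA methyltransferase. All of these were chosen by symbol, as 10 of the 15836 gene rows of the deposited count table. Their difference between the groups was already known, so that their own values are a description and carry no test. RNA was sequenced from 3 MAOA-KO and 3 control libraries of a mouse cell line named CAF in the labels, the usual abbreviation of cancer-associated fibroblast, with pancreatic tumor as its tissue. The MAOA-KO libraries carry the genotype label MAOA ko and, in another label field, the word knockdown. The control libraries carry the genotype wt and the treatment control, and no further allele or agent is labelled in either group. How the cells were edited, and whether each group is 1 clone, is not given in the sources used here.

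PGC-1 coactivators do not bind DNA themselves. They dock on factors such as the estrogen-related receptor ERRα, the nuclear respiratory factor NRF-1 and GABP, which in turn bind the promoters of nuclear genes for respiratory chain subunits and for the mitochondrial transcription machinery. Ppargc1a is known above all from brown fat, muscle and liver, where cold, exercise and fasting raise its transcript.

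Library totals were 18631359 to 26645441 counts in MAOA-KO and 23735244 to 25116027 counts in control, so that 3 counts equal 0.110 to 0.156 CPM (counts scaled to a common library size with TMM factors). That floor covers counting error only. No label says that the replicates are separate cultures, so p-values measure the spread between these libraries. The row named Maoa had 24.9 ± 0.639 CPM in MAOA-KO against 49.0 ± 0.921 CPM in control (SD, n = 3 each), but its listed locus is that of another gene, so it does not check the labels. All 232 rows used for the regulators, the lists and the markers lie at the annotated locus of their gene. Of 10 fibroblast markers, 9 had a row and 2 passed 10 CPM, and the summed level was 1900 to 1956 CPM in MAOA-KO against 3465 to 3607 CPM in control, most of it Vim. Col3a1, the other marker above 10 CPM, averaged 129 ± 2.75 CPM in MAOA-KO against 120.4 ± 5.09 CPM in control (SD, n = 3 each) and was called higher (log2 fold change 0.09, edgeR adjusted p = 0.0418), although the groups overlapped. The defining fibroblast genes Col1a1, Pdgfra and Pdgfrb averaged at most 2.02 CPM in either group. All 7 epithelial markers had a row, and their sum, mostly keratins, was 1212 to 1284 CPM in MAOA-KO against 2101 to 2230 CPM in control. Of these, 4 passed 10 CPM, all keratins and all called lower. Epcam averaged at most 0.349 CPM and Cldn4 at most 0.145 CPM in either group. Cdh1 averaged 2.28 ± 0.222 CPM in MAOA-KO against 2.68 ± 0.157 CPM in control (SD, n = 3 each) and was not called (edgeR adjusted p = 0.170). Of the adipocyte and muscle markers, which stand for tissues known for high Ppargc1a, Fabp4 and Acta1 alone had a row, each under 0.5 CPM in both groups, and Ucp1 and Adipoq had none. In bulk libraries, fewer cells of a type and less RNA per cell cannot be told apart.

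Ppargc1a encodes PGC-1α, the inducible member of the family. Its row (ENSMUSG00000029167, chr5:51454250-51567726, minus strand, GRCm38) held 300, 429 and 298 counts in the MAOA-KO libraries against 9, 12 and 7 counts in the controls. All 3 MAOA-KO libraries were far above all 3 controls, in which the transcript was barely detected. As scaled levels these were 13.7, 15.7 and 15.5 CPM in MAOA-KO against 0.390, 0.503 and 0.287 CPM in control. The fitted log2 fold change was 5.24 ± 0.16 (SE), or 37.7-fold, and it lay between 5.05 and 5.45 under the alternative settings, which include leaving out each library in turn. The lowest MAOA-KO value was 13.7 CPM and the highest control value 0.503 CPM.

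The Ppargc1a promoter is shown because this transcript has the largest difference among the 10 regulators, and because cAMP signalling is known to raise it through a CRE, the element that CREB binds. The sequence is RefSeq's (GRCm38.p6), the 250 bases that end just before the transcription start, at chr5:51567726-51567975 on the minus strand. Capitals mark the only match to the short CRE core TGACG, here on the opposite strand as CGTCA, whose first base lies 49 bases upstream of the start.
Ppargc1a: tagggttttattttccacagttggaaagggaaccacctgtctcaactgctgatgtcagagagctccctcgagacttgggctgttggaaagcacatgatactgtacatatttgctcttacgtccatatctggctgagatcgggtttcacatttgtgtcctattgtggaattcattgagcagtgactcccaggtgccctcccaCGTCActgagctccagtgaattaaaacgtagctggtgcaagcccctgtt
The short core occurs on either strand in 20.8% of all 32851 RefSeq promoter windows, so a match is common, and it is a description of the letters and not a binding site. The full palindrome TGACGTCA, which contains the short core, was in 1.79% of windows and in none of the regulators' windows. With 5 CpG dinucleotides and 48.7% GC, the Ppargc1a window lay near the median window (7 CpG, 52.7% GC).

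**Figure D1:**
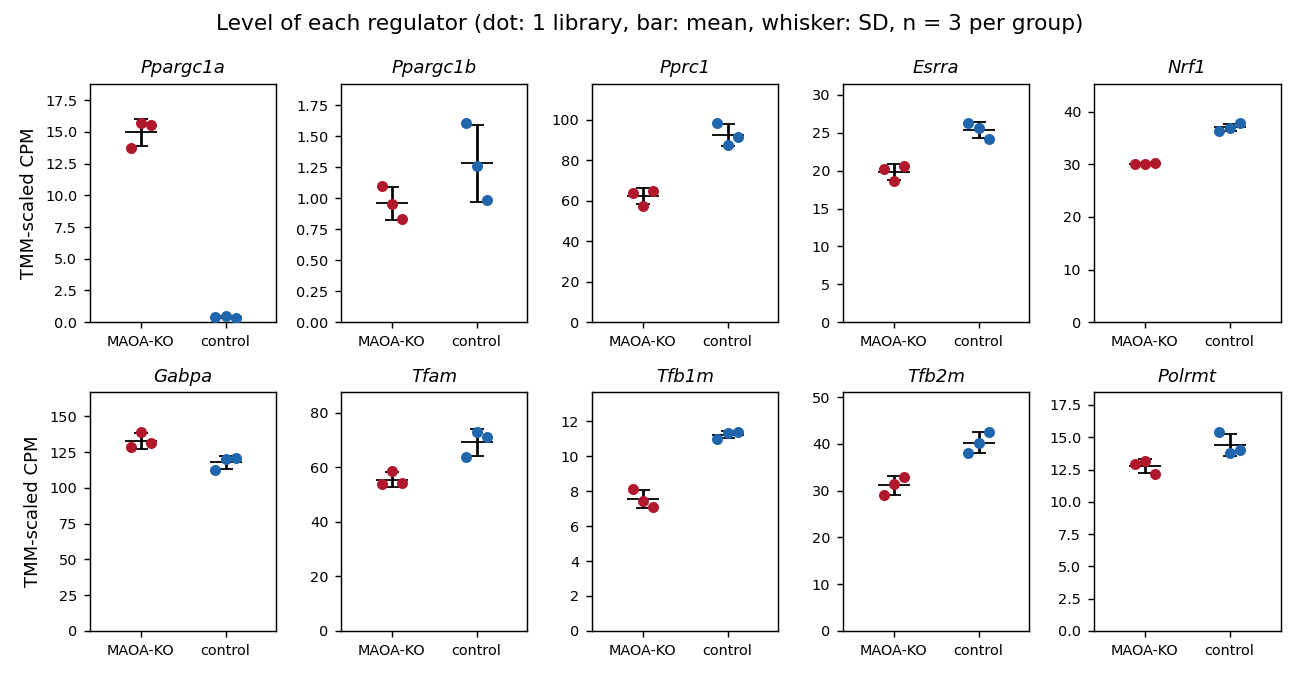
TMM-scaled CPM (y axis, from 0, a scale of its own in each panel) of the 10 regulators in the 3 MAOA-KO (left, red) and 3 control libraries (right, blue), with the mean as a bar and the SD as a whisker. Ppargc1a sits near 15.0 CPM in MAOA-KO and near 0.393 CPM in control, Gabpa is the other gene with higher MAOA-KO values, and Ppargc1b alone has overlapping groups.

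The other coactivators did not share this difference. Ppargc1b, which encodes PGC-1β (ENSMUSG00000033871, chr18:61298136-61400431, minus strand), had 24, 26 and 16 counts in MAOA-KO against 37, 30 and 24 in control. These are 1.10, 0.950 and 0.834 CPM in MAOA-KO against 1.60, 1.26 and 0.983 CPM in control. The groups overlapped, since MAOA-KO replicate 1 lay above control replicate 3, and the log2 fold change of -0.40 ± 0.24 (SE) rests on few counts. It lay between -0.57 and -0.22 under the alternative settings, with -0.22 without control replicate 1. Pprc1 encodes PRC, the PGC-1-related coactivator known for its response to serum in growing cells (ENSMUSG00000055491, chr19:46044886-46072915, plus strand). Its level was 63.9, 57.6 and 64.9 CPM in MAOA-KO against 98.2, 87.4 and 91.4 CPM in control. Every MAOA-KO library was below every control library, with a log2 fold change of -0.58 ± 0.05 (SE), 1.49-fold lower.

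Per kilobase of the longest coding transcript, Pprc1 remained the main coactivator transcript in both groups. Its share of the summed Ppargc1a, Ppargc1b and Pprc1 level per kb was 82.1 ± 1.56% in MAOA-KO against 97.7 ± 0.448% in control (SD, n = 3 each). The Ppargc1a share was 14.6%, 17.8% and 16.01% in the MAOA-KO libraries against 0.314%, 0.455% and 0.250% in the controls. Ppargc1b held 1.83 ± 0.278% in MAOA-KO and 1.94 ± 0.390% in control. The family sum was nonetheless lower in MAOA-KO, at 14.6, 13.7 and 15.0 CPM per kb against 19.2, 17.1 and 17.7 CPM per kb in control. The sums of the 2 groups did not overlap. At these lengths, the higher Ppargc1a level per kb did not make up for the lower Pprc1 level. Ppargc1a was divided by 6464 bases here, and a shorter length, such as the 2452 bases behind its deposited FPKM, would raise its level per kb. Which transcript was expressed was not tested, so the order of the sums per kb holds for the longest coding transcripts only. Summed without a length, the family had 78.7, 74.2 and 81.3 CPM in MAOA-KO against 100.2, 89.1 and 92.7 CPM in control. These sums did not overlap either.

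The genes whose profile over the 6 libraries was nearest to that of Ppargc1a were found by the Euclidean distance between log2 CPM values centred on each gene's mean, among 10096 protein-coding genes with at least 5 CPM in the higher group. Rragd, which encodes a Rag GTPase of the lysosomal nutrient-sensing machinery, was nearest at a distance of 0.767, with 117, 113 and 115 CPM in MAOA-KO against 2.86, 4.19 and 4.51 CPM in control. C1s1, a complement serine protease, followed at 1.40, then 2310057J18Rik at 1.70, the secreted metalloprotease gene Adamts9 at 1.74 and the prostaglandin D synthase gene Ptgds at 1.81. Their folds ran from 29.6 for Rragd to 12.9 for Ptgds. The median distance over all candidates was 6.18 and the largest 11.8. With 2 groups of 3 libraries this distance mostly ranks genes by the size of their difference, and nothing on shared function or control follows from it.

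**Figure D2:**
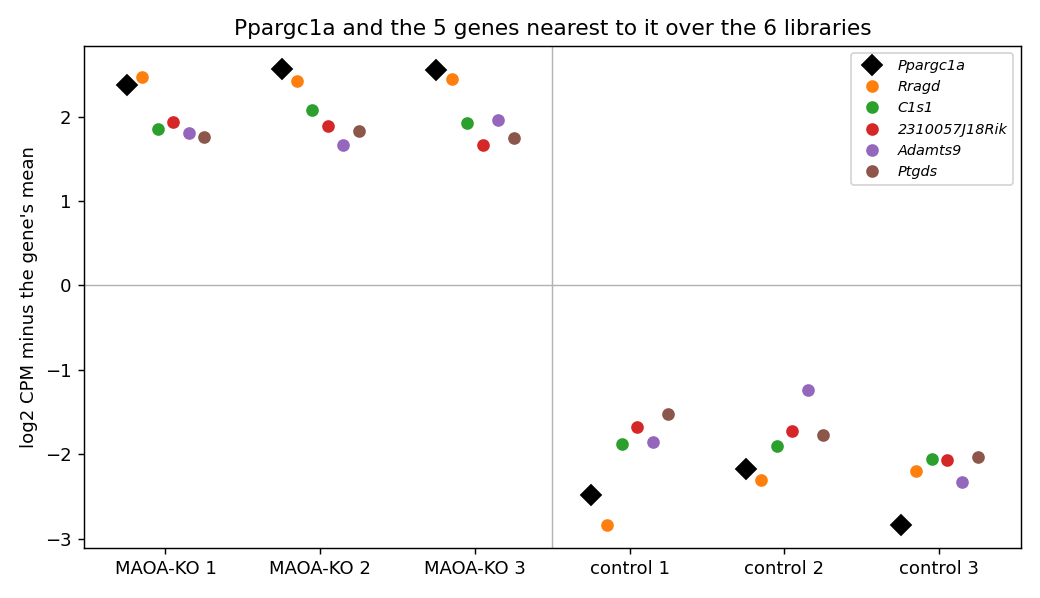
Log2 CPM minus the gene's own mean (y axis) in each of the 6 libraries (x axis, MAOA-KO left) for Ppargc1a (black diamonds) and the 5 genes nearest to it (coloured dots). All 6 genes lie above 0 in the MAOA-KO libraries and below 0 in the controls, and Rragd, at a distance of 0.767, lies closest to Ppargc1a.

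Esrra, Nrf1 and Gabpa encode the DNA-binding partners of the coactivators: the orphan nuclear receptor ERRα, the factor NRF-1, and the ETS-domain subunit GABPα, also called NRF-2α. Esrra (ENSMUSG00000024955, chr19:6910977-6921840, minus strand) had 20.2, 18.6 and 20.6 CPM in MAOA-KO against 26.2, 25.6 and 24.2 CPM in control. All MAOA-KO values were below all control values, with a log2 fold change of -0.36 ± 0.06 (SE). Nrf1 (ENSMUSG00000058440, chr6:30047988-30153458, plus strand) had 30.1, 30.1 and 30.2 CPM in MAOA-KO against 36.3, 36.9 and 37.8 CPM in control. The MAOA-KO libraries were nearly identical and all lay below the controls, at -0.30 ± 0.05 (SE) on the log2 scale. Gabpa (ENSMUSG00000008976, chr16:84834925-84863779, plus strand) went the other way, with 128, 139 and 131 CPM in MAOA-KO against 113, 120 and 121 CPM in control. The groups lay close but did not overlap, and the log2 fold change was 0.17 ± 0.04 (SE), 1.13-fold. Its partner subunits Gabpb1 and Gabpb2, which carry the activation domain of GABP, averaged 33.0 ± 0.921 and 124 ± 2.26 CPM in MAOA-KO against 35.4 ± 1.76 and 119.8 ± 8.22 CPM in control, and neither passed the test (edgeR adjusted p = 0.0941 and 0.264).

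Sites for these factors are shown because the regulators are known to form a hierarchy in which NRF-1 and GABP act on the promoters of the genes below them. RefSeq promoter windows (GRCm38.p6, 250 bases before the start and a short stretch after it) were found for 9 of the 10 regulators, and were searched on both strands for the NRF-1 core GCGCATGC (reverse GCATGCGC) and the ETS core CCGGAAG (reverse CTTCCGG). Each line gives 30 bases in the direction of the gene, with the match in capitals. They lie at chr19:6921824-6921853 for Esrra, chr16:84835020-84835049 for Gabpa, chr10:71238073-71238102 for Tfam, chr1:179546245-179546274 for Tfb2m, and chr10:79746696-79746725 and chr10:79746606-79746635 for Polrmt, all on the minus strand except Gabpa.
Esrra, NRF-1 core: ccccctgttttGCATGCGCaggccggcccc
Tfb2m, NRF-1 core: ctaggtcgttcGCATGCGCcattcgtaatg
Polrmt, NRF-1 core: agagtatttctGCGCATGCtctcttgccgc
Gabpa, ETS core: gagggtaagtgCTTCCGGgtccctcagcta
Tfam, ETS core: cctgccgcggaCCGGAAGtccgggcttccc
Polrmt, ETS core: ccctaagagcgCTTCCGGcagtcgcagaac
The NRF-1 core occurs in 2.71% of all windows and the ETS core in 8.86%. Only these exact letters were searched, so a match is not a binding site, and variant sites were not looked for. Polrmt is the only regulator with both, its NRF-1 core 133 bases and its ETS core 43 bases upstream of the start. The first matched base lay 34 bases upstream in Esrra, 93 in Gabpa and 47 in Tfam, while in Tfb2m it was base 14 after the start. No window of the 9 held the estrogen-related receptor core AAGGTCA (4.72% of all windows), the E-box CACGTG (7.15%) or the longer TCACGTGA that contains it (0.974%), and the short CRE core was found in Ppargc1a and Tfb1m.

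Tfam, Tfb2m and Polrmt, which serve mitochondrial DNA transcription, and the rRNA methyltransferase gene Tfb1m were all lower in MAOA-KO. TFAM packages mitochondrial DNA and opens its promoters, and Tfam (ENSMUSG00000003923, chr10:71225464-71238280, minus strand) had 53.7, 58.7 and 54.1 CPM in MAOA-KO against 63.7, 72.9 and 71.2 CPM in control. No MAOA-KO library reached the lowest control, and the log2 fold change was -0.32 ± 0.05 (SE). TFB2M melts the promoter together with the polymerase, and Tfb2m (ENSMUSG00000026492, chr1:179528055-179546267, minus strand) had 29.0, 31.4 and 32.9 CPM in MAOA-KO against 38.0, 40.2 and 42.5 CPM in control, also without overlap, at -0.37 ± 0.06 (SE). TFB1M methylates the small mitochondrial rRNA, and Tfb1m (ENSMUSG00000036983, chr17:3519256-3557781, minus strand) had 8.11, 7.42 and 7.09 CPM in MAOA-KO against 11.0, 11.3 and 11.4 CPM in control. Its groups did not overlap, and its log2 fold change of -0.58 ± 0.09 (SE) was the largest in size of the 4 genes. POLRMT is the mitochondrial RNA polymerase, and Polrmt (ENSMUSG00000020329, chr10:79736123-79746581, minus strand) had 13.0, 13.2 and 12.1 CPM in MAOA-KO against 15.4, 13.8 and 14.0 CPM in control. Its groups were separated by less than 1 CPM, the log2 fold change was -0.17 ± 0.07 (SE), and with libraries scaled by their totals alone the groups overlapped and the value was -0.08.

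Over the 10 regulators, all of which passed the filter on low counts, 9 had groups that did not overlap, 2 with MAOA-KO higher and 7 with MAOA-KO lower. Among all 13243 tested genes 75.1% had groups that did not overlap, 37.7% with MAOA-KO higher and 37.5% with MAOA-KO lower. The median log2 fold change was -0.34 over the regulators and 0.00 over all tested genes. Replicates varied little: the median within-group SD of log2 CPM was 0.081 for the regulators, from 0.02 for Nrf1 to 0.27 for Ppargc1b, against 0.075 over all tested genes. Some exons are shared with genes on the opposite strand, and the strand setting of the counting is not given in the sources used here, so reads there cannot be assigned. The shared part is 6.98% of the exonic bases for Gabpa (with Atp5j), 3.93% for Tfb1m (with Tiam2), 2.82% for Pprc1 (with Ldb1) and 1.66% for Esrra (with Trmt112).

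**Figure D3:**
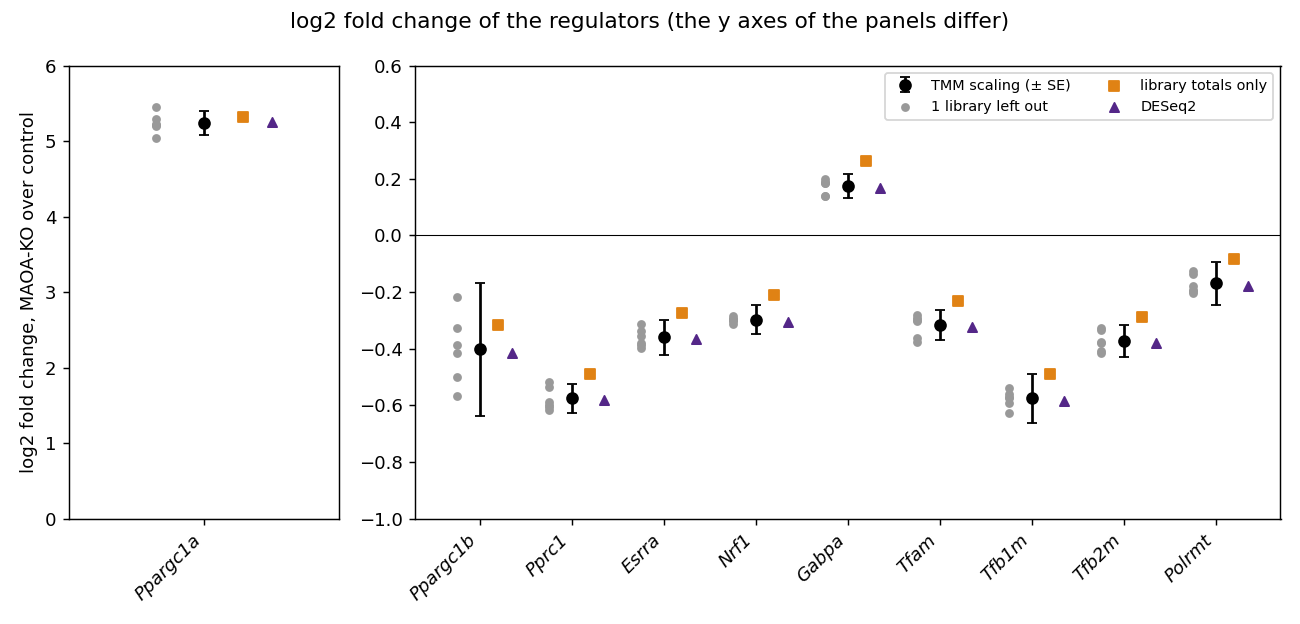
Log2 fold change, MAOA-KO over control (y axis, with a scale of its own in each panel), of each regulator: black dots with SE bars for TMM scaling, grey dots with 1 library left out, orange squares for library totals, purple triangles for DESeq2. Ppargc1a stays between 5.05 and 5.45, Gabpa stays above 0 and the other 8 genes stay below 0 in every setting drawn.

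Set side by side per kilobase of the longest coding transcript, Gabpa had the highest level of the 10 genes in both groups, 26.7 ± 1.10 CPM per kb in MAOA-KO and 23.6 ± 0.923 in control (SD, n = 3 each). In MAOA-KO the order below it was Tfam (13.3 ± 0.671), Tfb2m (12.7 ± 0.811), Pprc1 (11.8 ± 0.757), Esrra (8.84 ± 0.465), Nrf1 (8.41 ± 0.0170), Tfb1m (5.38 ± 0.372), Polrmt (3.40 ± 0.147), Ppargc1a (2.32 ± 0.166) and Ppargc1b (0.263 ± 0.0364). Tfam and Tfb2m, Tfb2m and Pprc1, and Esrra and Nrf1 overlapped between libraries and are not separated by their spread. In control, Pprc1 was in second place at 17.6 ± 1.04 CPM per kb, overlapping Tfam (16.6 ± 1.18), which overlapped Tfb2m (16.4 ± 0.932). Ppargc1a was last in control, at 0.0608 ± 0.0167 CPM per kb, below Ppargc1b at 0.351 ± 0.0852. Even in MAOA-KO, Ppargc1a was thus among the lower transcripts of the set by this length.

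The deposited FPKM values give another order, since they divide by 1 length per gene. For Pprc1 that length was 405 bases, a processed transcript of the gene without a coding sequence, against 5246 bases for its longest coding transcript. Its FPKM of 158 ± 10.5 in MAOA-KO and 221 ± 13.4 in control would place it above Gabpa. For Ppargc1a the length was 2452 bases, that of a nonsense-mediated decay transcript, against 6464, and the FPKM was 6.29 ± 0.433 in MAOA-KO against 0.156 ± 0.0424 in control. Fold changes of a gene do not depend on this length.

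**Figure D4:**
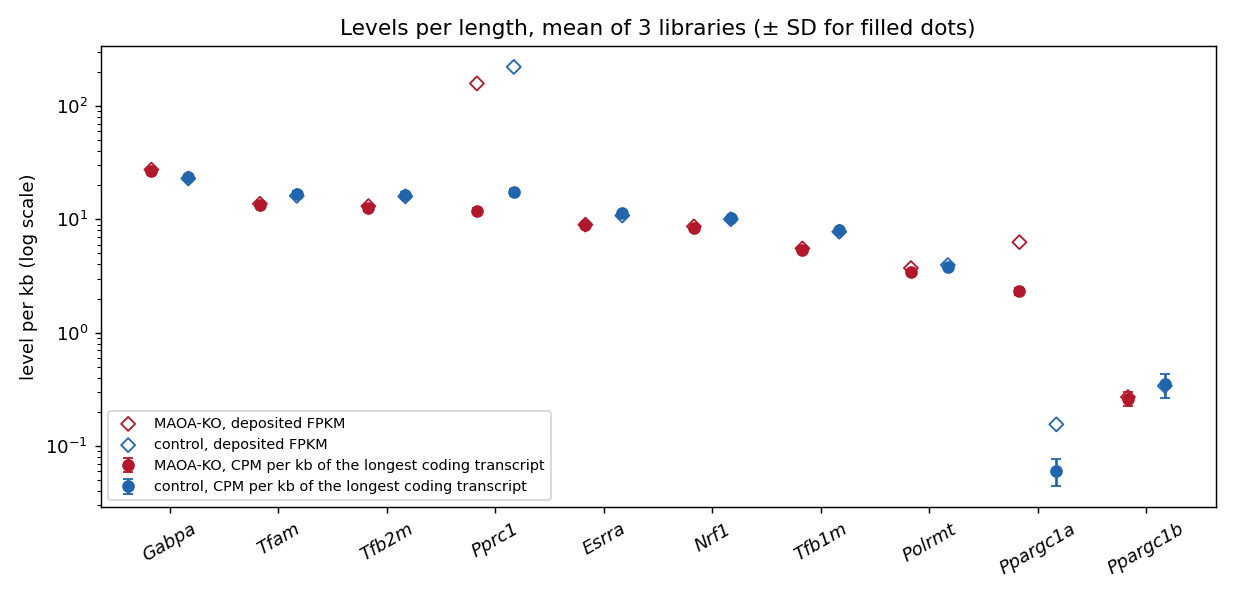
Mean level per kb (y axis, log scale) of the 10 regulators in MAOA-KO (red, left of each pair) and control (blue): filled dots are CPM per kb of the longest coding transcript with SD bars (n = 3), open diamonds the mean of the deposited FPKM. The measures lie close together except for Pprc1 and Ppargc1a, whose FPKM used a length of 405 and 2452 bases.

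Genes known to act on Ppargc1a or on its protein include the AMPK kinase subunits, the CREB and MEF2 factors, the deacetylase SIRT1 and the MiT/TFE factors. Of 30 such genes 29 were tested, and 12 were higher and 6 lower (edgeR adjusted p under 0.05), with a median log2 fold change of 0.04. Among all tested genes 73.9% passed this test, 37% higher and 36.9% lower, or 4900 and 4881 genes. The lists here and below were drawn up with earlier results of these data known, so their shares are a description. With libraries scaled by their totals alone, all tested genes shifted upwards by a median of 0.086 (log2), to 5757 higher and 4046 lower, and the splits under library totals given for the lists below contain that shift. Prkaa2, the catalytic AMPK subunit α2, had 2.52, 2.38 and 3.54 CPM in MAOA-KO against 0.998, 0.838 and 1.02 CPM in control. It rose by a log2 fold change of 1.53 ± 0.20 (SE, edgeR adjusted p = 2.24e-07), from a low level. The other catalytic subunit gene, Prkaa1, averaged 100.4 ± 1.96 CPM in MAOA-KO and 106 ± 4.67 in control and did not pass the test (edgeR adjusted p = 0.0902). It passed with the replicate number as a block, where its log2 fold change was -0.08, and without control replicate 1, where it was -0.12.

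Mef2a, a MADS-box factor that acts on the Ppargc1a promoter in muscle, rose to 179.9 ± 7.83 CPM in MAOA-KO against 120.1 ± 3.04 CPM in control (log2 fold change 0.58 ± 0.04, edgeR adjusted p = 1.75e-12). Camkk2, a kinase upstream of AMPK, rose by 0.50 ± 0.05 on the log2 scale (edgeR adjusted p = 1.96e-09). Sirt1, which deacetylates PGC-1α, rose to 31.9 ± 1.45 CPM in MAOA-KO against 26.6 ± 0.508 CPM in control (edgeR adjusted p = 0.000122), and the opposing acetyltransferase gene Kat2a fell to 56.9 ± 3.74 CPM against 65.8 ± 3.79 (edgeR adjusted p = 0.000667). Prmt1, an arginine methyltransferase of PGC-1α, fell to 232 ± 5.00 CPM in MAOA-KO against 352 ± 12.5 CPM in control (log2 fold change -0.60 ± 0.04, edgeR adjusted p = 1.88e-13). Tfe3, a MiT/TFE factor, fell to 47.5, 47.3 and 49.5 CPM in MAOA-KO against 81.3, 73.6 and 73.8 CPM in control (log2 fold change -0.67 ± 0.05, edgeR adjusted p = 3.07e-12). Its relative Tfeb had 4.04 ± 0.638 CPM in MAOA-KO and 4.41 ± 0.333 CPM in control (edgeR adjusted p = 0.328), and Creb1 had 61.7 ± 2.35 and 63.7 ± 2.94 CPM (edgeR adjusted p = 0.396), so that neither passed the test. Nrip1, a corepressor that opposes PGC-1α in fat, fell by 0.19 on the log2 scale (edgeR adjusted p = 0.000343). The calls of Sirt1, Kat2a and Nrip1 were lost against a 1.2-fold change, a null that 45.9% of all tested genes passed (23.6% higher, 22.3% lower).

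Of 23 nuclear receptor partners and further coactivators 17 were tested, with 4 higher, 7 lower and a median log2 fold change of 0.01. These calls are 23.5% higher and 41.2% lower, beside 37% and 36.9% of all tested genes. Under library totals alone, where all genes shifted upwards, the split was 6 higher and 5 lower. Nr1h3, the oxysterol receptor LXRα, rose to 5.31, 4.75 and 4.95 CPM in MAOA-KO against 1.56, 1.63 and 1.23 CPM in control (log2 fold change 1.76 ± 0.15, edgeR adjusted p = 5.67e-11). Ncoa1, the steroid receptor coactivator SRC-1, rose to 16.02 ± 0.188 CPM in MAOA-KO against 6.86 ± 0.525 CPM in control (1.22 ± 0.08, edgeR adjusted p = 7.07e-13). Thrb, a thyroid hormone receptor, fell to 9.27 ± 1.17 CPM against 17.5 ± 0.903 in control (-0.91 ± 0.08, edgeR adjusted p = 3.45e-10), and the early-response receptor Nr4a1 fell by 1.07 on the log2 scale (edgeR adjusted p = 2.51e-09). Among the PPARs, the classical lipid-sensing partners of PGC-1α, Ppard fell to 37.7, 30.5 and 33.2 CPM in MAOA-KO against 49.2, 50.7 and 50.1 CPM in control (-0.57 ± 0.06, edgeR adjusted p = 2.52e-09). Pparg fell to 15.1 ± 0.536 CPM in MAOA-KO against 17.8 ± 0.828 CPM in control (-0.23 ± 0.07, edgeR adjusted p = 0.00339), a call that was lost under library totals, at -0.15, and against a 1.2-fold change. Ppara, with 9, 8 and 3 counts in MAOA-KO against 2, 1 and 3 counts in control, was too low to test, and the ERR paralogs Esrrb and Esrrg had no row.

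All 20 genes listed for mitochondrial DNA replication and the nucleoid were tested, with 4 higher, 9 lower and a median log2 fold change of -0.11. Higher calls made up 20% and lower calls 45%, beside 37% and 36.9% of all tested genes. The split was 7 higher and 8 lower under library totals, with the same shift of all genes. Mpv17, an inner membrane protein whose loss depletes mitochondrial DNA, rose to 55.5, 52.2 and 52.0 CPM in MAOA-KO against 31.5, 32.9 and 32.8 CPM in control (log2 fold change 0.72 ± 0.05, edgeR adjusted p = 1.08e-12). The pyrimidine nucleotide carriers moved in opposite directions: Slc25a36 rose by 0.47 ± 0.05 on the log2 scale (edgeR adjusted p = 2.91e-09), and Slc25a33 fell to 28.9, 28.3 and 28.8 CPM in MAOA-KO against 57.5, 57.6 and 56.6 CPM in control (-0.999 ± 0.05, edgeR adjusted p = 6.61e-16). Lonp1, the matrix protease that degrades TFAM, fell to 258 ± 4.40 CPM in MAOA-KO against 463 ± 12.9 CPM in control (-0.84 ± 0.04, edgeR adjusted p = 8.32e-17).

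Of the 32 genes for mitochondrial transcription and RNA processing, all tested, 10 were higher and 15 lower, and the median log2 fold change was -0.12. As shares these are 31.25% and 46.9%, beside 37% and 36.9% of all tested genes. Library totals, with the shift of all genes, gave 12 higher and 8 lower. The RNA-binding proteins Fastkd2 and Lrpprc rose, Fastkd2 by 0.50 ± 0.05 (edgeR adjusted p = 8.97e-09) and Lrpprc by 0.32 ± 0.04 (edgeR adjusted p = 4.92e-08) on the log2 scale. Elac2, which cuts tRNA 3′ ends, fell to 21.8 ± 0.396 CPM in MAOA-KO against 42.2 ± 1.32 CPM in control (-0.95 ± 0.05, edgeR adjusted p = 1.70e-14). Tbrg4, another FASTK-family RNA-binding protein, fell to 34.2 ± 1.40 CPM against 62.8 ± 3.62 CPM (-0.87 ± 0.05, edgeR adjusted p = 5.76e-14). Fastkd2 and Tbrg4 belong to one gene family and changed in opposite directions, but the naming rule takes genes from both directions, so nothing on the family follows.

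The mitochondrially encoded transcripts are the products of this machinery. Of 15 listed mRNAs and rRNAs 13 had a row and 9 were tested, with 2 higher, 1 lower and a median log2 fold change of -0.01. That is 22.2% higher and 11.1% lower, beside 37% and 36.9% of all tested genes. Mitochondrial mRNAs took 2.94%, 3.22% and 3.13% of all counts in the MAOA-KO libraries against 2.99%, 2.95% and 2.87% in the controls. The groups overlapped, and an exact two-sided permutation test of the share gave p = 0.3, where 3 libraries against 3 cannot go below 0.1. This share is not the whole mitochondrial mRNA output. mt-Co2, mt-Co3, mt-Atp6 and mt-Nd3 had 1 to 15 counts in each library, mt-Nd4l and mt-Atp8 had no row, and mt-Co1 was the largest part. mt-Nd4, a complex I subunit that shares 876 of its 1378 bases with a nuclear copy, rose to 1665, 1716 and 1723 CPM in MAOA-KO against 1502, 1448 and 1296 CPM in control (log2 fold change 0.27 ± 0.04, edgeR adjusted p = 2.90e-06). The counts of the rRNAs, which are neighbours on 1 primary transcript, moved in opposite directions. mt-Rnr1 had 11055 to 16192 counts a library and mt-Rnr2 13335 to 20077, against 295180 to 431639 for mt-Co1. How much rRNA was removed in library preparation was not tested, so these values may not measure rRNA levels. mt-Rnr1, the small rRNA, rose to 584 ± 7.75 CPM in MAOA-KO against 512 ± 23.5 CPM in control (edgeR adjusted p = 6.15e-05), and mt-Rnr2, the large one, fell to 692 ± 13.9 CPM against 831 ± 26.7 CPM (edgeR adjusted p = 2.50e-07). Against a 1.2-fold change, none of these 3 calls was kept. Library totals gave 5 higher and 1 lower, and 2 were lower without control replicate 1, without control replicate 3 or with the replicate block.

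Of 40 classical targets of PGC-1 coactivators in metabolism and oxidative defence 36 had a row and were tested, with 6 higher, 19 lower and a median log2 fold change of -0.10. Shares were 16.7% higher and 52.8% lower, beside 37% and 36.9% of all tested genes. The split was 8 higher and 14 lower under library totals, and 3 were higher without MAOA-KO replicate 2 or without control replicate 1. Acadm, the medium-chain acyl-CoA dehydrogenase gene, rose to 98.1, 108 and 103 CPM in MAOA-KO against 62.0, 67.8 and 66.2 CPM in control (log2 fold change 0.66 ± 0.05, edgeR adjusted p = 1.63e-12). Etfdh, which passes electrons from such dehydrogenases to ubiquinone, rose to 53.1, 55.7 and 55.6 CPM in MAOA-KO against 40.5, 40.8 and 42.1 CPM in control (0.41 ± 0.05, edgeR adjusted p = 1.28e-08). Angptl4, a secreted lipase inhibitor, fell to 23.5, 24.3 and 22.6 CPM in MAOA-KO against 53.3, 46.9 and 45.8 CPM in control (-1.05 ± 0.06, edgeR adjusted p = 2.57e-14). Genes were named by lowest p, and Angptl4 was not the largest fall: log2 fold changes in the list ran from -2.72 to 0.66. Uqcrc1, a core subunit of complex III, fell by 0.62 ± 0.04 on the log2 scale (edgeR adjusted p = 1.28e-12). The muscle and brown fat targets Ucp1, Ucp3, Cpt1b and Fndc5 had no row, and Pdk4 had 1.30 ± 0.0249 CPM in MAOA-KO and 1.21 ± 0.158 CPM in control without passing the test. These 5 were singled out after their values were seen.

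Mitochondrial protein import, through which all nuclear-encoded matrix proteins enter, had 34 of 35 genes tested, with 5 higher, 23 lower and a median log2 fold change of -0.19. In this list 14.7% were higher and 67.6% lower, beside 37% and 36.9% of all tested genes. Library totals gave 7 higher and 15 lower. Tomm40, the pore of the outer membrane translocase, fell to 52.6, 48.5 and 48.2 CPM in MAOA-KO against 92.7, 87.9 and 84.7 CPM in control (-0.83 ± 0.05, edgeR adjusted p = 3.29e-14). Pmpca, a subunit of the protease that removes targeting sequences, fell by 0.54 ± 0.04 on the log2 scale (edgeR adjusted p = 3.14e-12). Timm21, a subunit of the inner membrane translocase, rose by 0.38 ± 0.06 (edgeR adjusted p = 1.01e-06), and Immp1l, an inner membrane peptidase, rose by 0.33 ± 0.05 (edgeR adjusted p = 3.36e-06), a call that was lost against a 1.2-fold change. The keratin and Vim sums given above were also lower in MAOA-KO, and their part in these counts was not tested.

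**Figure D5:**
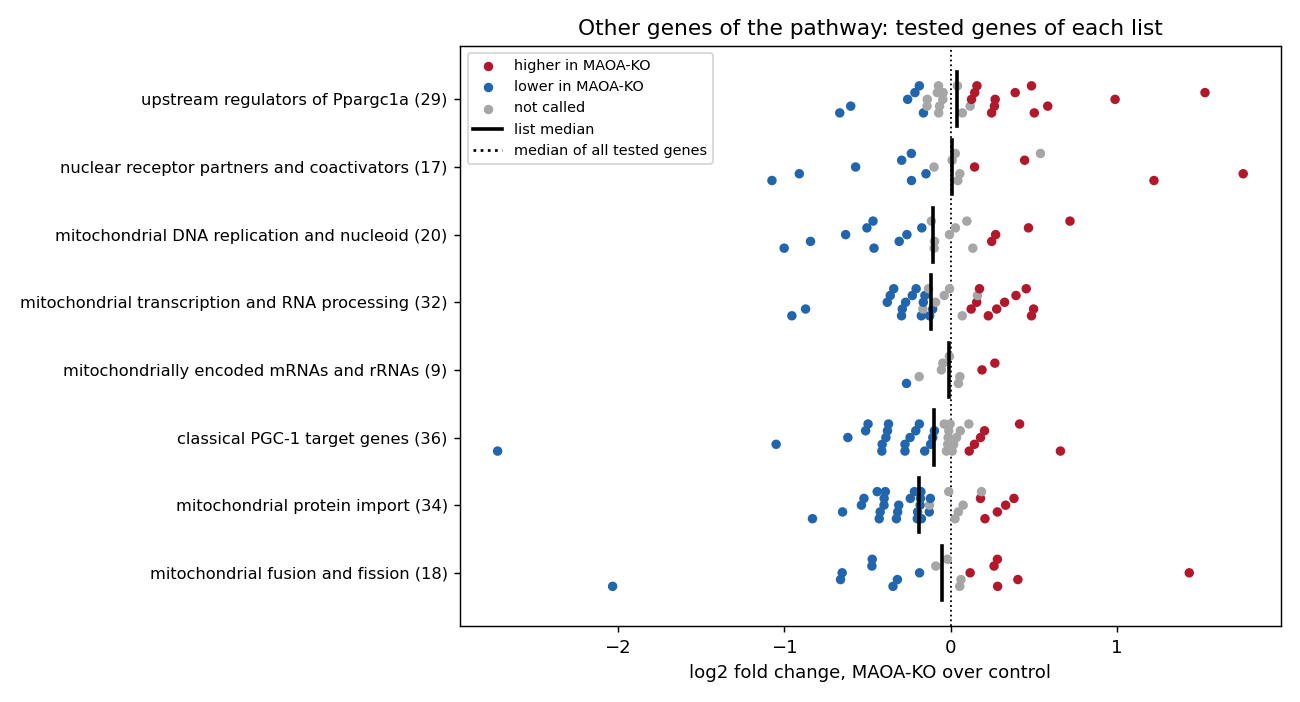
Log2 fold change, MAOA-KO over control (x axis), of every tested gene in 8 lists around the regulators (rows, number tested in brackets), red where called higher, blue where called lower and grey where not called by edgeR. Solid bars mark each list's median, from -0.19 for protein import to 0.04 for the upstream regulators, and the dotted line the median of all tested genes, 0.00.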

How the data were processed

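Raw read counts per gene for 6 libraries were used as the authors deposited them. The deposited FPKM values divide these counts by the library total and by 1 length per gene, as recomputed here. The authors' log2 fold changes, their p-values and the −log10 of these are in the deposited table with no test named, and were not used. The build is GRCm38.p6 in the file headers. Nothing names an aligner, a counter or a strand setting, which therefore count as not given in the sources used here. Small RNA is what the labels' protocol speaks of, although the table lists mRNAs.

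Groups follow the labels' titles. In edgeR 4.0.16 (R 4.3.3), filterByExpr kept 13243 genes and left 2593 untested, and TMM factors ran from 0.968 to 1.03. Group was the single term of a robust quasi-likelihood fit, and Benjamini-Hochberg adjusted p-values over all tested genes were read at 0.05. SDs are over 3 libraries. The regulators and the lists were chosen with earlier results of these data known, so the regulators have no p-value and list shares are descriptions. Named genes were the 10 regulators, up to 2 called genes of each direction per list by lowest p, 13 fixed symbols, and the 5 genes nearest to Ppargc1a. Gabpb1 and Gabpb2 were added after their values were seen. Levels per kb used GENCODE M21. Libraries of 1 group differed beyond counting error (mean chi-square per gene 2.00 to 4.56) and were treated as separate samples. Alternatives were DESeq2 1.42.0, its size factors, library totals, no filter, each library left out, a replicate block, and a 1.2-fold null. The test was tried on simulated counts.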

Additional observations from a re-analysis of the deposited data

How the results depend on the processing

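No gene called both in the fit reported and under an alternative changed direction. Genes whose call was lost are not part of that check. Prkaa1 and Creb1, which were not called, were 0.0071 and 0.04 (log2) under library totals, against -0.08 and -0.04 in the fit reported. Of the regulators' repeats, 105 moved by less than the within-group SD of log2 CPM and 5 by more, all under library totals, which shift the median of all tested genes by 0.086 (log2): Esrra -0.27, Nrf1 -0.21, Gabpa 0.26, Tfb1m -0.49 and Polrmt -0.08. The number of regulators without overlap was 8 under library totals. It was 9 to 10 with 1 library left out, but fewer libraries make overlap less likely, so this count is no check. The share of all tested genes without overlap is not given for these settings. Library totals gave 5757 genes higher and 4046 lower over all tested genes, with 7 higher for mitochondrial DNA replication, 8 lower for mitochondrial transcription, 5 higher for mitochondrially encoded transcripts and 15 lower for protein import. DESeq2 gave 6 higher for mitochondrial transcription. Against a 1.2-fold change, 45.9% of tested genes passed, 3120 higher and 2959 lower. The lists then had 5 higher and 2 lower (upstream regulators), 3 higher and 3 lower (receptor partners), 2 higher and 6 lower (DNA replication), 3 higher and 5 lower (transcription), 0 higher and 0 lower (mitochondrially encoded), 2 higher and 10 lower (targets), 1 higher and 11 lower (import) and 2 higher and 6 lower (fusion and fission). With 1 library left out, the targets had 3 to 6 higher and the mitochondrially encoded transcripts 1 to 2 lower. The cause of these moves was not tested, apart from the stricter null of the 1.2-fold test. Over other named genes, 528 repeats kept their status, called or not called, 2 gained a call (Prkaa1) and 10 lost it. The 10 losses were Sirt1, Kat2a, Nrip1, Pparg, Immp1l, Mff, mt-Nd4, mt-Rnr1 and mt-Rnr2 against a 1.2-fold change, and Pparg under library totals.

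Same-numbered libraries deviated together with correlations of 0.088, 0.058 and 0.035 over all tested genes, and 0.330, 0.195 and 0.169 over 10075 genes of at least 5 CPM, where control replicate 3 correlated more with MAOA-KO replicate 2 (0.222). Whether the numbers mark pairs thus depended on the genes used and is uncertain, and the values reported are without the block. The replicate block called 10205 genes, against 9781 without it, gave 14 higher and 9 lower upstream regulators (12 and 6 without it) and 2 lower among mitochondrially encoded transcripts, and called Prkaa1 at -0.08. Depth limits Ppargc1b, Ppara and the control level of Ppargc1a, which rest on at most 37 counts a library.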

Other observations

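Mitochondrial fusion and fission genes, which shape the organelle rather than make it, were tested in 18 of 19 cases, with 6 higher, 8 lower and a median log2 fold change of -0.05 (8 higher and 7 lower under library totals, where all tested genes shifted to 5757 higher and 4046 lower). Without that shift 33.3% were higher and 44.4% lower, beside 37% and 36.9% of all tested genes. Yme1l1, an inner membrane protease that cuts the fusion protein OPA1, rose by 0.40 ± 0.04 on the log2 scale (edgeR adjusted p = 4.13e-09), and Mff, an outer membrane receptor of the fission dynamin, rose by 0.28 ± 0.04 (edgeR adjusted p = 1.15e-06), a call that was lost against a 1.2-fold change. Stoml2, an inner membrane scaffold, fell to 69.9 ± 1.86 CPM in MAOA-KO against 109.6 ± 3.23 CPM in control (edgeR adjusted p = 3.60e-13), and Mtfr2, a fission regulator, fell to 1.40 ± 0.106 CPM against 5.69 ± 0.147 CPM (log2 fold change -2.03 ± 0.14, edgeR adjusted p = 1.18e-12). The dynamin gene Dnm1l had 151 ± 7.00 CPM in MAOA-KO and 145 ± 6.93 CPM in control, and Opa1 had 113 ± 2.78 and 108 ± 4.20 CPM. Neither passed the test (edgeR adjusted p = 0.194 and 0.232). Both were named after their values were seen.

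Some mitochondrial mRNAs were almost without counts. mt-Co2, mt-Co3, mt-Atp6 and mt-Nd3 had 1 to 15 counts in each library, while mt-Co1 had 295180 to 431639, and mt-Nd4l and mt-Atp8 had no row. GENCODE M21 holds nuclear copies of several of these genes: Gm28661 equals mt-Co2 in 100% of 681 bases, Gm10925 equals mt-Atp6 in 100% of 678, Gm28437 equals mt-Co3 in 100% of 783, and Gm28438 equals mt-Nd3 in 99.7% of 345. For mt-Nd4, which is counted at 31644 to 46985 a library, the copy Gm28439 covers 876 of 1378 bases, and for mt-Co1 the copy Gm29216 covers 492 of 1545. The copies with a row had 3 to 239 counts. How reads that fit both a mitochondrial gene and its copy were counted was not tested, so the levels of these mRNAs are uncertain.

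The length behind the deposited FPKM can be read from counts and FPKM. Of 12953 protein-coding rows with an annotated identifier, 99.0% had the length of a transcript of their gene within 1 base. In 6.51% of these the length matched only transcripts that are not protein-coding, as for Pprc1 and Ppargc1a. In 4.44% of the protein-coding rows the longest coding transcript was over 2 times longer than the length used. FPKM levels of different genes in this table are affected by that choice, and differences between the groups are not.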
